A study of Mus musculus with 8 samples.

Results

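The Zfp genes examined here are the protein-coding genes of the mm9 annotation (GENCODE M1) whose symbol starts with Zfp and a digit, apart from Zfp42, which was left out by name. They numbered 370 of 22367 protein-coding genes on the nuclear chromosomes and carried 366 symbols, because 4 symbols (Zfp319, Zfp664, Zfp708 and Zfp738) belonged to more than 1 gene record. The other 21997 protein-coding genes were the comparison. 5-hydroxymethylcytosine (5hmC) had been mapped by GLIB-Seq, in which a glucose is placed on each 5hmC and coupled to biotin, so that fragments with 5hmC are captured and sequenced. The 6 libraries, 1 per condition, came from E14 mouse embryonic stem cells (ESC), mouse embryonic fibroblasts (MEF, C57BL/6, embryonic day 11 in the labels and a later day in the methods), brain and liver of C57BL/6 mice of 8 weeks, and ESCs transfected with a short hairpin against GFP (shGFP) or against Suz12 (shSuz12) and selected with puromycin. Suz12 is a core subunit of Polycomb repressive complex 2. The GFP hairpin was the control, and the ESC library carried no hairpin. With 1 library per condition there was no replicate check and no test between conditions, and nothing in a peak list gives the sequencing depth. The lists held 130408 to 217025 peaks that covered 3.15% (shSuz12) to 7.83% (MEF) of the genome, and their lowest scores ranged from 30 to 80, so that they did not reach down to the same level. shSuz12 peaks were the narrowest, with a median of 564 bp against 776 bp in shGFP.

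Most Zfp genes encode proteins with C2H2 zinc fingers, short folds held by a zinc ion that read DNA when strung together in arrays. Many also carry a KRAB domain, which recruits the corepressor Trim28 and through it the H3K9 methyltransferase Setdb1, and such proteins silence retrotransposons and keep imprinted regions methylated. The genes have multiplied by tandem duplication into clusters of similar copies, and their fingers are usually encoded in 1 long last exon. A C2H2 pattern was found in 349 of the 370 members, with a median of 10 fingers and a maximum of 36, and 296 had 5 or more. A KRAB A-box-like stretch was found in 148. The other 21 members had no C2H2 finger by this pattern. They include the CCCH-type mRNA decay factors Zfp36, Zfp36l1 and Zfp36l2, so the name covers more than 1 protein family. The last exon had a median length of 2207 bp in the members against 954 bp in other genes, and it held a median of 84.4% of a member's coding bases against 16.6%. Another member lay within 100 kb of 203 members, and 15 overlapped another member, with 87 members on chromosome 7, 45 on chromosome 17 and 38 on chromosome 13.

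As examples of sequence under the peaks, 240 bases were read for 4 of the members with the most covered last exons. The same number was read for 1 of those with the most covered TSS windows. Each coding stretch was the one covered whole in the most libraries, and of these the most 5′. Each is printed 5′ to 3′ on the strand of the gene, from the mm9 genome, with every CpG in capitals. Zfp652 (ENSMUSG00000075595.3, chr11:95624962-95625201, plus strand), a transcriptional repressor, was covered in all 6 libraries and has 12 CpGs in the stretch. Zfp628 (ENSMUSG00000074406.3, chr7:4872993-4873232, plus strand) was covered in all 6 and has 10. Zfp334 (ENSMUSG00000017667.9, chr2:165205812-165206051, minus strand), a KRAB-like member, was covered in every library but liver, and its 16 CpGs lie in and around 2 complete fingers. Zfp319 (ENSMUSG00000046556.6, chr8:97853234-97853473, minus strand) was covered in all 6 from its start codon on and has 12. Of Zfp217 (ENSMUSG00000052056.8, chr2:169973604-169973843, minus strand), a transcriptional cofactor studied as an oncogene, the bases just upstream of the TSS are shown. They were covered in ESC, MEF and shSuz12 and have 1 CpG. The stretches of Zfp652, Zfp628 and Zfp319 held no complete finger. The coding stretches had 41.7 to 66.7 CpGs per kb and the Zfp217 stretch 4.17. Over all members, the coding bases of the last exon under ESC peaks had 36.4 CpGs per kb.
Zfp652: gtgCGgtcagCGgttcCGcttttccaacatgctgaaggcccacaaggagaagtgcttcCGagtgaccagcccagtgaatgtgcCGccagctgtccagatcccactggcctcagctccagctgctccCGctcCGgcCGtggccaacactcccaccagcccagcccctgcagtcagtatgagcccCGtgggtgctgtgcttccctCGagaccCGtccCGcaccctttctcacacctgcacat
Zfp628: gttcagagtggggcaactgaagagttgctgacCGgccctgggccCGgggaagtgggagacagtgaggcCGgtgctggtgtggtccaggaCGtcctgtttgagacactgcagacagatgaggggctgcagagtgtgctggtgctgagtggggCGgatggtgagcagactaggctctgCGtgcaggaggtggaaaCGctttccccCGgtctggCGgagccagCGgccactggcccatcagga
Zfp334: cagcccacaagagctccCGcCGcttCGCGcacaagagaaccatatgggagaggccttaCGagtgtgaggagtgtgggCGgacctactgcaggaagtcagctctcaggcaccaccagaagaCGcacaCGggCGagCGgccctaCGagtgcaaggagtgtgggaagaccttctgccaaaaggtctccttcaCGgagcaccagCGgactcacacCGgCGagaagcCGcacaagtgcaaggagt
Zfp319: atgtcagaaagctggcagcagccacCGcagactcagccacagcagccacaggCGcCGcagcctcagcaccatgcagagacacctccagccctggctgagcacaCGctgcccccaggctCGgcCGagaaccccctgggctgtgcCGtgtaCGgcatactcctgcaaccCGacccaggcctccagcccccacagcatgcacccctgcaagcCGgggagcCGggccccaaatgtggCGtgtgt
Zfp217: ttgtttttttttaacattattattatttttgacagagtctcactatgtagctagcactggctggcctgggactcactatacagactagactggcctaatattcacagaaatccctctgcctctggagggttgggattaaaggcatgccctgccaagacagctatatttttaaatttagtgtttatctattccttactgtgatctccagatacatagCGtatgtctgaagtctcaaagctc

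Around the TSS, the Zfp genes had fewer 5hmC peaks than other genes in the 3 libraries made from ESCs and more in liver. A peak overlapped the TSS ± 1 kb by at least 1 bp in 81 members in ESC (21.9%, exact Clopper-Pearson 95% interval 17.8 to 26.5%) against 32.1% of the other protein-coding genes. In shGFP it did so in 59 members (15.9%, 12.4 to 20.1%) against 27.3%, and in shSuz12 in 32 (8.65%, 5.99 to 12%) against 21.6%. In liver, 147 members had a peak there (39.7%, 34.7 to 44.9%) against 29.2% of other genes, while within 500 bp of the TSS liver had 21.1% (17 to 25.6%) against 17.3%, inside the interval. MEF, with 124 members (33.5%, 28.7 to 38.6%) against 30.0%, and brain, with 67 (18.1%, 14.3 to 22.4%) against 20.0%, had intervals that included the share of the other genes. These intervals cover counting error only, and members of 1 cluster share sequence, so they are not independent. By bp, peaks covered 5.96% of the members' TSS windows in ESC against 13.1% in other genes, 4.86% against 11.1% in shGFP and 2.0% against 6.02% in shSuz12. The corresponding values were 8.7% against 9.9% in MEF, 4.8% against 6.65% in brain 4.8% against 6.65% in brain and 11.2% in liver, where it was 1.12 times that of other genes. The plot of shares by library shows the 3 windows side by side.

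**Figure D1:**
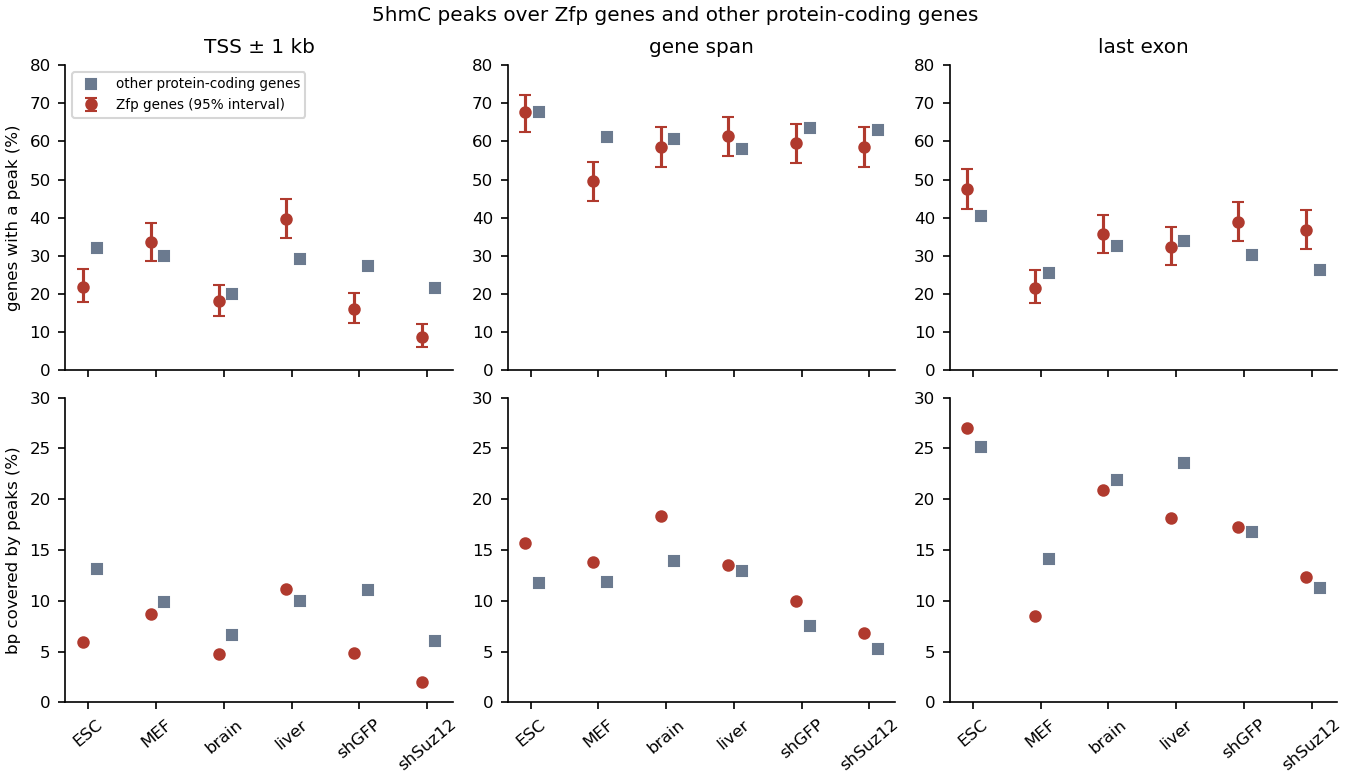
Percentage of genes with a 5hmC peak (top) and percentage of bp covered by peaks (bottom) in the TSS ± 1 kb, the gene span and the last exon, for the 370 Zfp genes (circles, with exact 95% intervals in the top row) and the 21997 other protein-coding genes (squares), by library. At the TSS the Zfp genes lie below the others in ESC, shGFP and shSuz12 and above them in liver, where 39.7% had a peak against 29.2%.

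The members' peaks were few close to the TSS. The TSS base lay under a peak in 4.32% of members in ESC, 2.7% in MEF, 1.89% in brain, 3.78% in liver, 4.59% in shGFP and 1.62% in shSuz12, against 11.9, 6.94, 4.5, 5.41, 11.3 and 5.9% of other genes. Between 1 and 2 kb downstream the members were closer to the others or above them. There, peaks covered 14.7% of the bp in ESC against 16.5%, 15.3% in MEF against 14.5%, 14.1% in brain against 11.8% and 23.7% in liver against 17.9%. In the hairpin libraries the members stayed lower, with 8.07% against 11.2% in shGFP and 5.21% against 7.0% in shSuz12. In liver the members' peaks stood on both sides of the TSS, with 13.2% of the upstream 1 kb covered and 9.13% of the downstream 1 kb. This was not particular to members. Other genes in liver also had more covered upstream than downstream, at slightly lower values on both sides (8.04% downstream). In MEF the members had 8.07% upstream and 9.33% downstream, against 10.8% and 8.96% in other genes. The plot of peaks by distance from the TSS shows the low values around the start site and the shoulder downstream of it. In ESC the lowest value was 3.51% at 100 bp downstream, and in shGFP and shSuz12 the lowest were at 200 bp downstream.

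**Figure D2:**
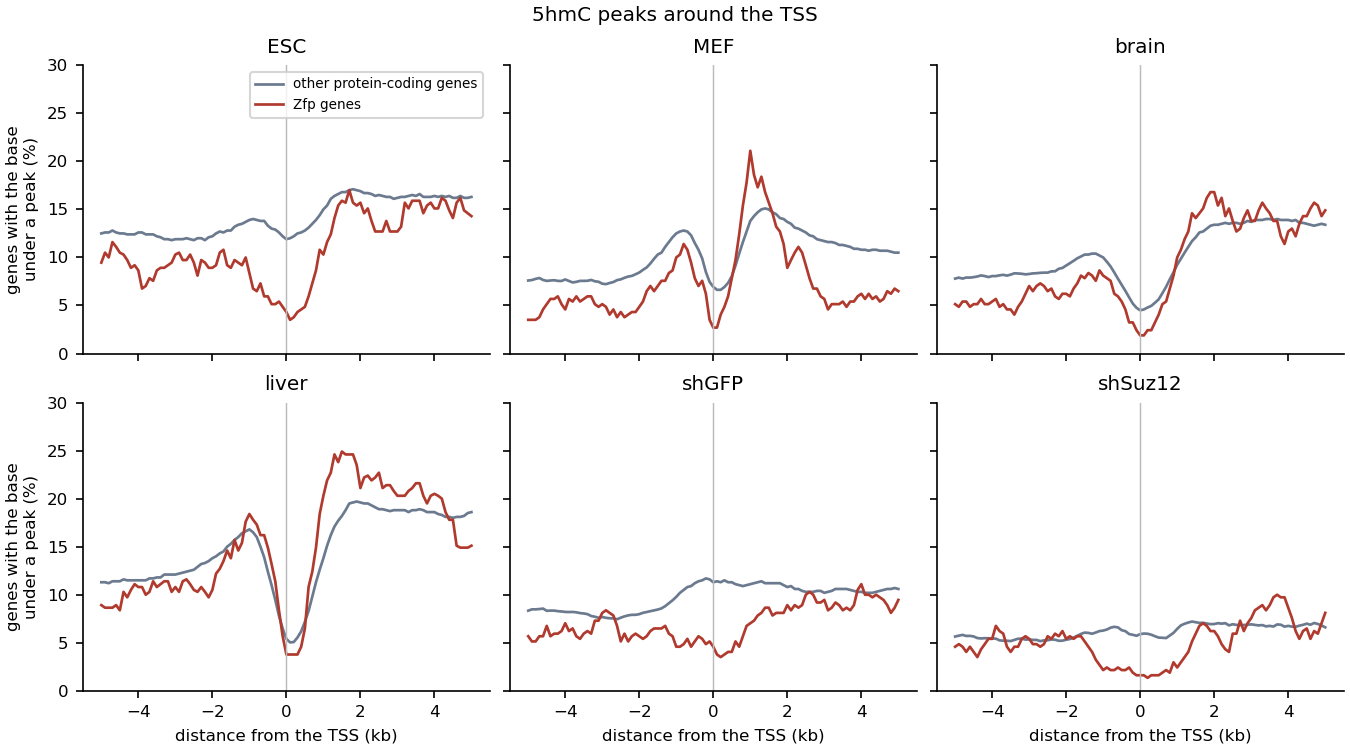
Percentage of genes whose base at a given distance from the TSS lies under a 5hmC peak, from 5 kb upstream to 5 kb downstream, for Zfp genes (red) and other protein-coding genes (grey), with 1 panel per library. At distance 0 the Zfp genes are lower in every panel, 4.32% against 11.9% in ESC and 3.78% against 5.41% in liver.

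The gap between members and other genes at the TSS differed with CpG content. The members as a whole did not have CpG-poor promoters, with 33 CpGs per kb in the TSS windows of members and of other genes alike. Windows were divided by the ratio of observed to expected CpGs, and those with at least 95% of their 32-base words unique in the genome were looked at alone, because reads from repeated words are not kept as unique hits. At a ratio of 0.2 to 0.6, a peak was present in ESC in 27.5% of 131 members and in 52.9% of 6598 other genes, in shGFP in 21.4% against 46.5%, and in shSuz12 in 11.5% against 35.9%. At a ratio of 0.6 or more, which is typical of CpG islands, it was present in ESC in 26.4% of 87 members against 25.7% of 6157 other genes, and in shGFP in 19.5% against 22.3%. In ESC and shGFP the gap was thus seen at the intermediate CpG ratio. In shSuz12 it was seen in the CpG-rich windows too, 8.05% against 17.1%. In liver the members were higher in both classes, 50.4% against 36.5% and 48.3% against 37.4%, and in MEF in the CpG-rich class, 50.6% against 33.1%. Of all members, 142 (38.4%, against 40.6% of other genes) had no peak in the TSS window in any library and 4 (1.08% against 2.74%) had 1 in all 6. A peak in liver alone of the 4 cell types was found in 38 members (10.3%, against 6.4% of other genes), in MEF alone in 33 (8.92% against 5.78%), and in ESC alone in 12 (3.24% against 7.7%).

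The most widely covered TSS window was that of Zfp575 (chromosome 7, 25368857 to 25372660, minus strand), a C2H2 gene with 6 fingers. Peaks covered 2000 bp of its 2000 bp in ESC, 477 bp in MEF, 901 bp in brain, 1257 bp in liver, 1995 bp in shGFP and 1219 bp in shSuz12. No library was bare there, and the ESC and shGFP values were the highest. Zfp217 (chromosome 2, 169934143 to 169973603, minus strand) had 719, 1916, 540, 584, 667 and 1022 bp in the same order, highest in MEF. The second record named Zfp319 (ENSMUSG00000074140.2, chromosome 8, 97846914 to 97849163, minus strand), a single exon just downstream of the gene whose sequence is printed above, had 1585 bp in ESC, 1931 bp in liver and 1631 bp in shGFP, and 0 in MEF, brain and shSuz12. Its TSS window reaches into the last exon of that gene.

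Along the gene, the members' 5hmC differed from that of other genes by part. Over whole gene spans a peak was present in 67.6% of members in ESC against 67.8% of other genes, 58.6% against 60.7% in brain, 61.4% against 57.9% in liver, 59.5% against 63.4% in shGFP and 58.6% against 63.1% in shSuz12. Each of these intervals included the other genes' share, and MEF was the exception, with 49.5% (44.3 to 54.7%) against 61.2%. Among genes with 2 or more exons, 362 of them members, the others' share lay above the interval in ESC (68.2%, 63.2 to 73%, against 75.5%), brain (59.4%, 54.1 to 64.5%, against 68.5%), shGFP (59.9%, 54.7 to 65%, against 71.0%) and shSuz12 (59.4%, 54.1 to 64.5%, against 71.0%) too. In shGFP and shSuz12 it also did so among peaks with a score of at least 80, with 45.4% against 53.2% and 25.4% against 30.5%. The parts of the gene differed more. In ESC peaks covered 6.17% of the members' first exons against 15.3% in other genes, 43.1% of the internal exons against 34.0%, 14.1% of the introns against 10.8%, 34.2% of the coding part of the last exon against 40.1%, and 20.5% of its UTR part against 23.0%, all over genes with 2 or more exons. The first exons and both parts of the last exon were below those of other genes in all 6 libraries, and the internal exons and introns above them in all 6. Over all genes, single-exon ones included, the coding part of the last exon was above that of other genes in ESC (34.0 against 31.7%), brain (24.6 against 23.1%), shGFP (24 against 22.6%) and shSuz12 (16.6 against 15.5%). The intron values pool bp, so long members weigh most in them. In brain the internal exons were at 40.2% against 26.6% and the introns at 18.6% against 13.7%. The plot along the gene shows that the members' coverage climbed within the coding part of the last exon in ESC, from 24.3% in the first of its 10 bins to 37.4% in the sixth, whereas other genes started at 38.7%.

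**Figure D3:**
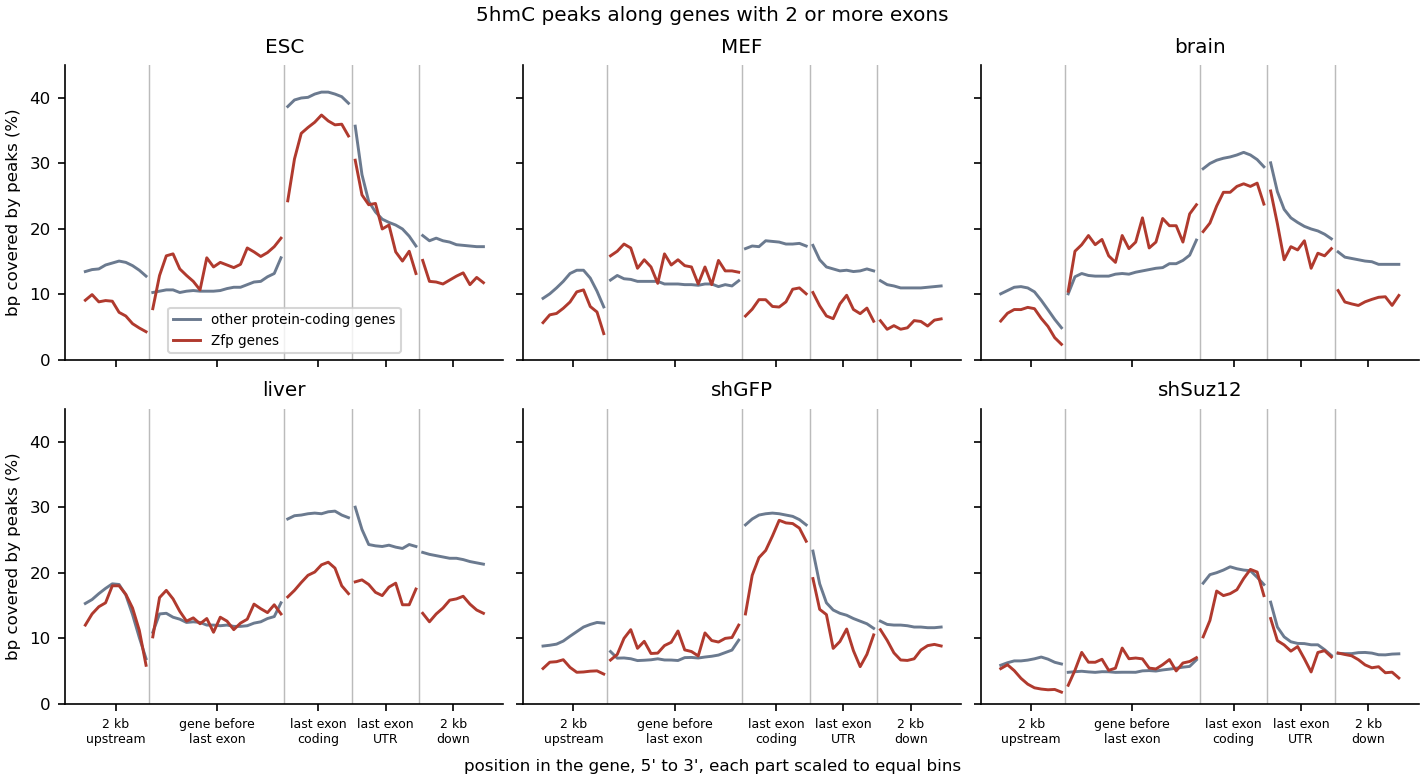
Percentage of bp covered by 5hmC peaks along genes with 2 or more exons, from 2 kb upstream to 2 kb downstream, each part scaled to a fixed number of bins, for Zfp genes (red) and other protein-coding genes (grey), with 1 panel per library. Coverage is highest in the coding part of the last exon in ESC and shGFP, and in ESC the Zfp genes lie below the others upstream, downstream and in the coding part of the last exon, and above them in most bins before it.

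The gene-span values were set to a large part by a few long members. Peaks covered 15.7% of all members' span bp in ESC against 11.7% in other genes, 13.8% against 11.8% in MEF, 18.3% against 13.9% in brain, 13.5% against 12.9% in liver, 9.93% against 7.48% in shGFP and 6.79% against 5.28% in shSuz12. The 10 members with the most covered bp held 33.1% (liver) to 55.3% (MEF) of these bp, and without them the members' coverage was 11.6, 8.26, 11.9, 11.1, 6.87 and 4.92% in the same order. When each gene counted once, the mean coverage was lower in members than in other genes in all 6 libraries, 16% against 18.2% in ESC and 7.12% against 10.8% in MEF. The median over genes was higher in members in ESC (9.69% against 8.74%), brain (7.47% against 6.41%) and liver (6.89% against 4.39%). It was lower in MEF (0.0% against 4.49%), shGFP (3.73% against 4.19%) and shSuz12 (2.95% against 3.05%). Among genes under 10 kb, peaks covered less of the 112 members in ESC (21.2% against 22.8%), MEF (5.94% against 10.9%), shGFP and shSuz12. They covered more in brain and liver, with 24.7% against 20.9% in liver. The 47 members of 30 to 100 kb were close to other genes of that size, with 15.8% against 15.4% in ESC. These 47 were higher in every library but shSuz12 (6.77% against 6.79%). The 190 members of 10 to 30 kb were lower throughout, with 12.1% against 21.4% in ESC and 5.21% against 10.8% in MEF. The other values were 9.78% against 15.7% in brain, 12.1% against 21.0% in liver, 6.74% against 13.1% in shGFP and 4.86% against 8.89% in shSuz12. The 21 members of 100 kb or more went the other way, with 17.6% against 7.59% in ESC, 21.9% against 12% in MEF, 25.8% against 12.8% in brain, 11.7% against 5.06% in shGFP and 8.04% against 3.71% in shSuz12. In liver these long members were at 10.9% against 9.04%.

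Among these long genes several developmental regulators had little coverage in liver and more in the other libraries. Zfp423 (chromosome 8, 90185709 to 90483494, minus strand), a factor in adipocyte commitment and cerebellar development, had 186086 bp of its 297786 bp under peaks in ESC, 121884 in MEF, 127356 in brain, 115335 in shGFP and 86127 in shSuz12, and 498 bp in liver. Zfp536 (chromosome 7), a regulator of neural differentiation, had 73144 bp in ESC, 84706 in MEF, 138905 in brain, 54363 in shGFP and 33549 in shSuz12, and 583 bp in liver. Zfp521, the closest relative of Zfp423 and a regulator of blood and neural progenitors, had 28662 bp in ESC, 28460 in shGFP and 13692 in shSuz12, but 115811 in MEF and 112930 in brain, and 1393 in liver. Brain and MEF were thus the highest libraries for Zfp521 and ESC the highest for Zfp423. In shSuz12, Zfp521 had 4.79% of its span covered, above the 3.71% of other genes of 100 kb or more. Other genes of all lengths together were at 5.28%. Zfp462, a chromatin regulator of neural development, had 49.1% of its span covered in brain, 35.0% in MEF, 29.8% in ESC, 25.1% in shGFP, 14.3% in liver and 13.7% in shSuz12, so that liver was not its lowest library. In Zfp148, a widely expressed factor that binds GC-rich promoters, liver was the highest, at 31.9% against 16% in brain and 13.2% in ESC, and in Zfp609 it was at 29.2% against 11.7% in ESC. Zfp827 and Zfp532, chosen here by length and named after their values were seen, were like Zfp423, with 48.6% and 51.2% in ESC, 53.9% and 62.0% in brain, and 5.44% and 6.85% in liver. Zfp804a, 206658 bp long and known from psychiatric genetics, was nearly bare, with 2193 bp in MEF, 786 bp in brain and none elsewhere. Levels of the genes' transcripts were not analysed here. The heat map of the longest members gives each value.

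**Figure D4:**
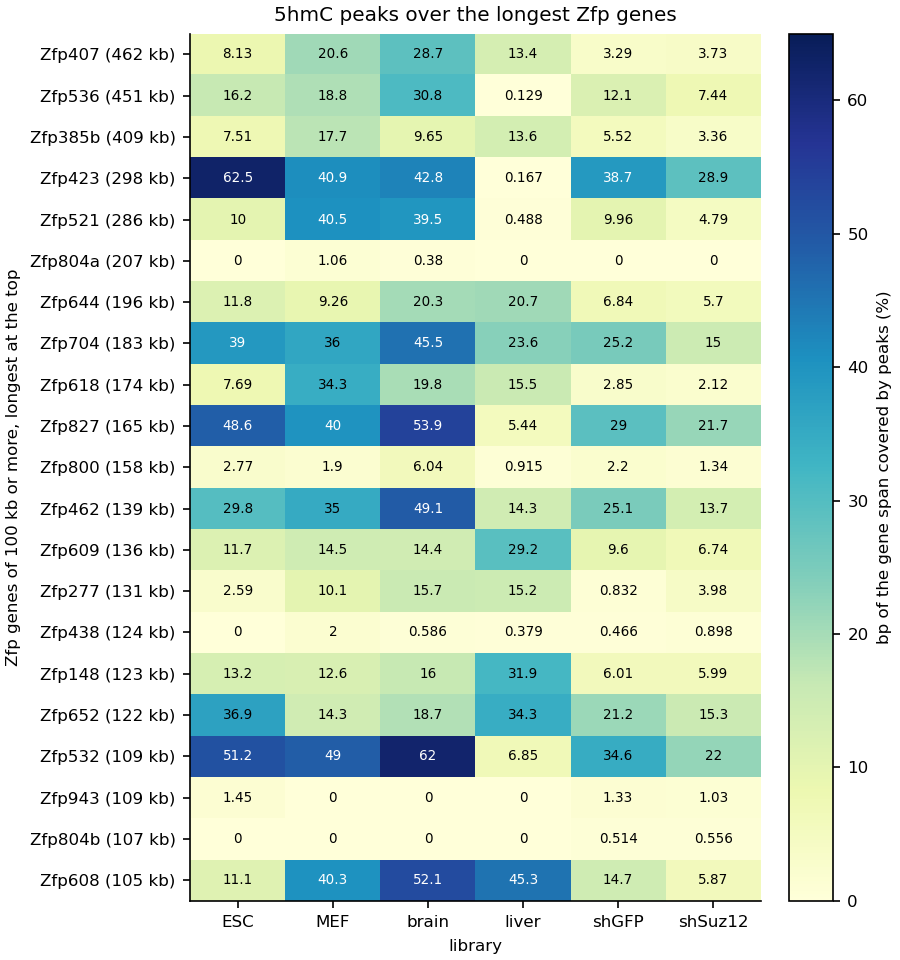
Percentage of the gene span covered by 5hmC peaks in each library (columns) for the 21 Zfp genes of 100 kb or more (rows, longest at the top, with their length), as colour and number. Zfp423 runs from 62.5% in ESC to 0.167% in liver, and Zfp608 from 52.1% in brain to 5.87% in shSuz12.

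In the last exon, where the fingers usually lie, a peak was present in 176 members in ESC (47.6%, 95% interval 42.4 to 52.8%) against 40.5% of other genes, in 144 in shGFP (38.9%, 33.9 to 44.1%) against 30.1%, and in 136 in shSuz12 (36.8%, 31.8 to 41.9%) against 26.3%. In the other 3 libraries the interval included the other genes' share, with 80 members in MEF (21.6%, 17.5 to 26.2%) against 25.4%, 132 in brain (35.7%, 30.8 to 40.8%) against 32.5%, and 120 in liver (32.4%, 27.7 to 37.5%) against 33.9%. The members' last exons are longer, and among other genes the share in ESC went from 31.5% with a last exon under 1 kb to 62.1% with 3 kb or more. By bp, peaks covered 27.0% of the members' last exons in ESC against 25.1%, 17.3% against 16.8% in shGFP and 12.3% against 11.3% in shSuz12, which are ratios of 1.08, 1.03 and 1.09. In MEF they covered 8.5% against 14.1%, in brain 20.9% against 21.9% and in liver 18.1% against 23.6%. Among genes with 2 or more exons, the members were below other genes in both parts of the last exon. In ESC these values were 34.2% against 40.1% in the coding part and 20.5% against 23.0% in the UTR part. Between genes of like length the order depended on the length. With a last exon of 1 to 2 kb, 53.5% of 114 members had a peak in ESC against 44.1% of 5633 other genes, and with 3 kb or more 49.6% of 115 members against 62.1% of 2252. In MEF the members of 3 kb or more were at 27.8% against 49.0%. The difference in ESC was within the interval among genes with 2 or more exons (47.8%, 42.5 to 53.1%, against 44.0%) and with the last exon that reaches the 3′ end of the gene (45.1%, 40 to 50.4%, against 40.2%).

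Where a member's last exon had a peak, the peak often covered most of it. In ESC, at least 50% of the last exon was covered in 119 members and the whole in 31, and the median over the covered members was 67.2%. In shGFP the median was 52.4%, in shSuz12 33.3% and in MEF 28.1%. These counts and medians were taken for members alone. Whether they differ from those of other genes, whose last exons are shorter, was not tested. The peaks that overlapped members' last exons had a median score of 365 in ESC against 285 for those over other genes' last exons, and a median width of 1269 against 1085 bp. In MEF the scores went the other way, 53.4 against 64.0. Within the coding part, covered bases were richer in CpG. In ESC the members had 36.4 CpGs per kb under peaks and 16.1 outside them, and 53.8% of all CpGs there lay under a peak. In other genes the densities were 37.0 and 22.4, and 43.4% of CpGs lay under a peak.

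Members differed by how unique their last exon is. Of the 64 members with less than 80% of 32-base words unique, 15.6% had a last-exon peak in ESC, 3.12% in MEF, 6.25% in brain, 14.1% in liver, 9.38% in shGFP and 10.9% in shSuz12. Of the 172 with 99% or more, 63.4, 29.1, 48.8, 41.9, 52.9 and 48.8% had 1. Other genes were at 11.7% and 47.7% in ESC in the same classes. Reads had been kept as unique hits, so peaks in repeated exons can be missed, and how much of the difference came from this was not tested. Words were matched exactly, while the authors mapped reads with mismatches allowed. Peaks can thus be missed in the class of 99% or more too. In the class of 99% or more the members were above other genes in ESC (63.4 against 47.7%), brain (48.8 against 39.7%), shGFP (52.9 against 35.8%) and shSuz12 (48.8 against 30.3%). They were close to them in liver (41.9 against 38.9%) and MEF (29.1 against 30.7%). Their last exons were also longer than those of other genes, and length and uniqueness were not separated in these counts.

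**Figure D5:**
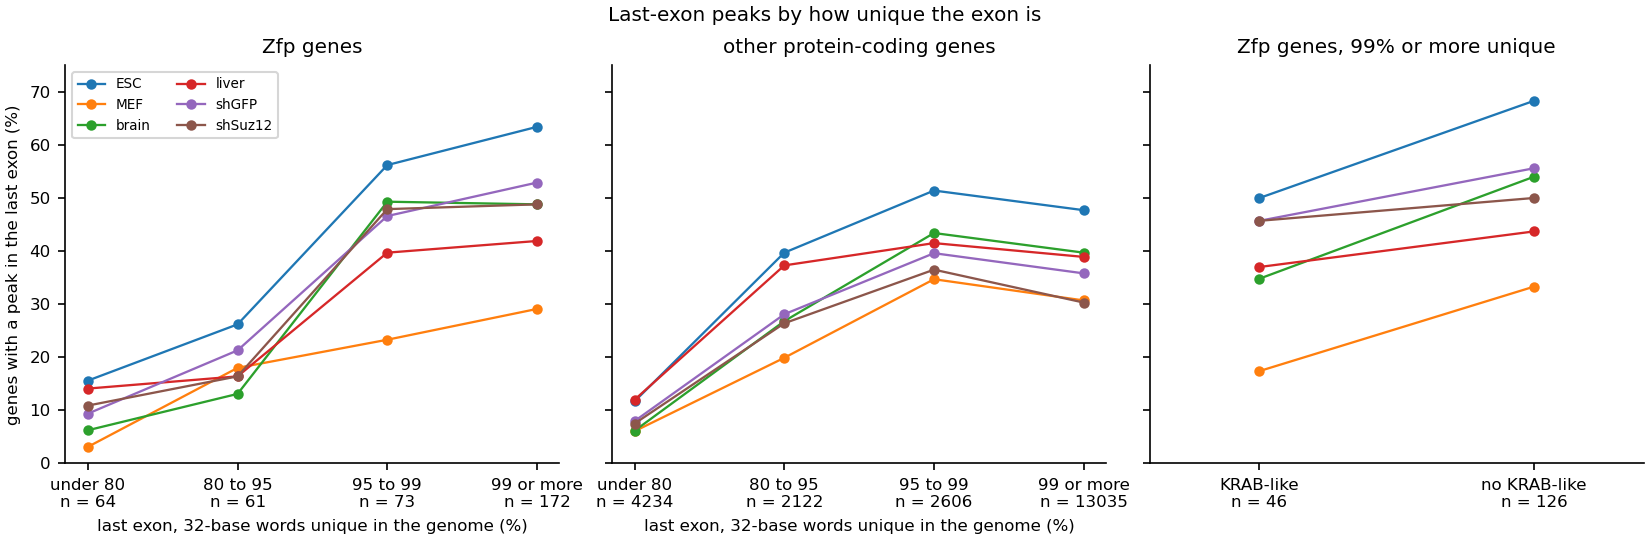
Percentage of genes with a 5hmC peak in the last exon by the percentage of its 32-base words that occur once in the genome, for Zfp genes (left) and other protein-coding genes (middle), and for Zfp genes of 99% or more with and without a KRAB-like stretch (right). Each line is 1 library, and n is the number of genes. In ESC the Zfp genes go from 15.6 to 63.4%, and with a KRAB-like stretch 23 of 46 have a peak, against 68.3% of those without.

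The KRAB-like members carried less 5hmC than the others. A last-exon peak was present in 33.1% of the 148 KRAB-like members in ESC against 57.2% of the 222 without the stretch, in 11.5 against 28.4% in MEF, 18.9 against 46.8% in brain, 19.6 against 41.0% in liver, 26.4 against 47.3% in shGFP and 29.7 against 41.4% in shSuz12. Their last exons were less unique, 86.0% of words against 93.8%, and poorer in CpG, 13.4 per kb against 18.1. Among members of 99% or more unique words, the shares in ESC were 23 of 46 KRAB-like members against 86 of 126 others (68.3%), 17.4 against 33.3% in MEF, 34.8 against 54.0% in brain, 37.0 against 43.7% in liver, 45.7 against 55.6% in shGFP and 21 of 46 against 63 of 126 in shSuz12. The order was the same in all 6 libraries, and the gap was smallest in shSuz12. CpG density was not held equal in this class, near-identical copies can still lose reads there, and the part of either was not tested. At the TSS the KRAB-like members were lower in brain (9.46 against 23.9%) and in liver (30.4 against 45.9%). TSS values of the other libraries by KRAB class are not given here. Members differed by chromosome, while clusters within a chromosome were not defined. Of the 38 members on chromosome 13, 2 had a last-exon peak in ESC, where 30.7% of the other genes of that chromosome had 1. On chromosome 17 it was 10 of 45 (22.2% against 44.4%), and on chromosome 7 it was 55 of 87 (63.2% against 35.0%). The chromosome 13 members had 82.5% unique words and 7.87 CpGs per kb in their last exons, and the chromosome 7 members 92.2% and 21.5. Related gene groups differed as well. Of 38 Zbtb genes, whose proteins join a BTB domain to C2H2 fingers, 33 (86.8%) had a last-exon peak in ESC and 20 (52.6%) in MEF. Of 25 Zscan and Zkscan genes, which carry a SCAN domain, 11 (44.0%) had 1 in ESC and 2 (8.0%) in MEF.

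The 5 members with the most covered last exons differed in their libraries. Zfp652 (chromosome 11, 95573987 to 95696429) had 6096 bp of its 8815-bp last exon covered in ESC, 1013 in MEF, 3474 in brain, 6299 in liver, 3222 in shGFP and 2160 in shSuz12. Zfp704 (chromosome 3, 9427011 to 9610085) had 2923, 3748, 7268, 0, 828 and 1441 bp of 11888 in the same order, highest in brain and bare in liver. Its last exon is nearly all UTR, with 112 coding bp. Zfp628 (chromosome 7, 4866819 to 4873605) was covered over the whole 3228 bp in ESC, brain and liver, and over 1676 bp in MEF, 2981 in shGFP and 1616 in shSuz12. In ESC, brain and liver a single peak reached across the exon, with scores of 2162.67, 262.93 and 1664.63. Zfp334 (chromosome 2, 165199764 to 165213759) had 4477, 2060, 4182, 0, 2345 and 2666 bp of 7623, and Zfp319 (chromosome 8, 97850037 to 97855850) had 3278, 869, 3217, 2585, 2467 and 2504 bp of 3676. The stretches printed above are from these exons, apart from that of Zfp217, and Zfp334 and Zfp704 were the 2 without a liver peak.

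Of the 370 members, 25 (6.76%, against 6.28% of other genes) had a last-exon peak in all 6 libraries and 139 (37.6% against 40.3%) in none. A peak in the 3 libraries made from ESCs and in none of MEF, brain and liver was found in 15 members (4.05% against 2.09%), and the reverse in 1 (0.27% against 0.918%). The leading members of the first group were Zfp619, Zfp7 and Zfp74, all with many fingers and a KRAB-like stretch. Zfp619 (chromosome 7, 46773136 to 46795790), with 33 fingers, had 3694 bp covered in ESC, 1364 in shGFP and 581 in shSuz12 and none in MEF, brain or liver. Zfp7 (chromosome 15, 76709689 to 76722822) had 2238, 1654 and 971 bp, and Zfp74 (chromosome 7, 30715834 to 30739108) had 2106, 836 and 1172 bp, with none in the other libraries. The 1 member of the reverse group was Zfp697 (chromosome 3), with 747 bp in MEF, 643 in brain and 91 in liver. No peak anywhere in the gene in any library was found in 64 members (17.3%, against 21.5% of other genes). The longest of these were Zfp280c and Zfp185 on chromosome X and Zfp442 on chromosome 2. Zfp280c and Zfp185 have 100% unique words in the last exon, and Zfp442 has 49.7%.

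Of the 24 members listed for a known role, 15 had a last-exon peak in ESC, 12 in MEF, 11 in brain, 11 in liver, 14 in shGFP and 12 in shSuz12. These are 62.5, 50, 45.8, 45.8, 58.3 and 50% of the list, which was picked by name, against 47.6, 21.6, 35.7, 32.4, 38.9 and 36.8% of all members. Other genes were at 40.5, 25.4, 32.5, 33.9, 30.1 and 26.3%. Zfp57 (chromosome 17, 37138108 to 37147580), the KRAB protein that keeps imprinting control regions methylated, had 950 bp of its 1214-bp last exon covered in ESC, 1132 in brain, 689 in shGFP and 518 in shSuz12, and none in MEF and liver. Zfp445, which acts in imprinting beside it, had 1369 bp of 2075 in brain, 1995 in liver and 635 in shSuz12, and none in ESC, MEF and shGFP. ESC and liver thus stood in opposite order for these genes. Zfp568 (chromosome 7, 30768974 to 30813301), a KRAB repressor of a placental Igf2 transcript, had 2159 bp of 2894 in ESC, 2468 in liver, 1614 in shGFP and 939 in shSuz12, and none in MEF and brain. Its ESC peak had a score of 1208.38. Zfp809, which silences retroviruses through their primer binding site, had its 164-bp last exon covered whole in brain, liver, shGFP and shSuz12 and bare in ESC and MEF. Zfp281, a factor linked to pluripotency in ESCs, had 868 bp in ESC, 922 in MEF, 1349 in liver and 618 in shGFP, and none in brain and shSuz12. Zfp238, a repressor needed for neuronal development, had 1796 bp in ESC, 920 in MEF, 1557 in liver, 1593 in shGFP and 1356 in shSuz12, and none in brain. The CCCH-type genes differed from each other. Zfp36 (tristetraprolin) had 1106 bp in ESC, 1710 in MEF, 1286 in brain, 1210 in shGFP and 603 in shSuz12, and none in liver. Zfp36l1 had no peak in the gene in any library, and Zfp36l2 had 580 bp in shGFP alone. Zfp750, a regulator of epidermal differentiation, had 1110 bp in ESC, 940 in MEF, 1522 in brain, 1137 in liver and 882 in shGFP, and none in shSuz12. Zfp354a and Zfp322a had no last-exon peak in any library. Zfp354a and Zfp36l1 had 65.4% and 66.8% unique words in the last exon, so peaks can be missed there, and Zfp322a had 95.5%.

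In shSuz12 the peaks covered fewer bp than in shGFP over the members, as over the whole genome. Peaks covered 35972 bp of the members' TSS windows in shGFP and 14809 in shSuz12, a ratio of 0.412, against 0.541 in other genes and 0.689 over the genome. Among the 59 members with a TSS peak in shGFP, 38 lacked it in shSuz12 (64.4%, 95% interval 50.9 to 76.4%), against 43.9% of other genes. Of the 32 with a TSS peak in shSuz12, 11 had none in shGFP (34.4%, 18.6 to 53.2%), against 29.1%. Libraries without a difference in hairpin target also differed. Of the 81 members with a TSS peak in ESC, 38 had none in shGFP (46.9%, 35.7 to 58.3%), against 31.8%, and of the 59 with 1 in shGFP, 16 had none in ESC (27.1%, 16.4 to 40.3%), against 19.9%. The shSuz12 list covered fewer bp of the genome than the shGFP list and had a lower minimum score, and the part of these differences in the values above was not tested. Of the 370 members, coverage of the TSS window was lower in shSuz12 in 54 and higher in 16, and 300 were bare in both libraries. Of the 21997 other genes, it was lower in 5367 and higher in 2024, and 14602 were bare in both. Lower values thus outnumbered higher ones in members and in other genes.

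In the last exons the difference between the hairpin libraries was smaller by bp. The bp covered went from 161040 in shGFP to 114190 in shSuz12, a ratio of 0.709 against 0.671 in other genes. Among the 144 members with a last-exon peak in shGFP, 30 lacked it in shSuz12 (20.8%, 14.5 to 28.4%), against 36.2% of other genes. Of the 136 with 1 in shSuz12, 22 had none in shGFP (16.2%, 10.4 to 23.5%), against 26.8%. Between ESC and shGFP, 44 of 176 had none in shGFP (25.0%, 18.8 to 32.1%), against 32.5%, and 12 of 144 had none in ESC (8.33%, 4.38 to 14.1%), against 9.41%. When peaks under a score of 80 were left out of both lists, the share of members with a last-exon peak in shGFP and none in shSuz12 was 57.7%, against 69.8% of other genes, and at the TSS it was 83.3% (67.2 to 93.6%) against 78.6%, inside the interval. The last exons of the members are longer than those of other genes, and the part of length in these shares was not tested. The largest reductions in covered bp among members also covered in ESC were in Zfp518b (chromosome 5), from 3587 bp in shGFP to 1643 in shSuz12 with 3990 in ESC, in Zfp516, a cofactor in brown fat, from 2107 to 244 with 2276 in ESC, and in Zfp703 (chromosome 8, 28087808 to 28091933), a transcriptional cofactor studied in breast cancer, from 1847 to 0 with 745 in ESC. Of the 6 libraries, shSuz12 was the one in which Zfp703 had no peak, but its ESC value was nearer to shSuz12 than to shGFP. The largest increases were in Zfp84, from 0 to 1505 bp with 1084 in ESC, in Zfp957, from 0 to 719 with 1838 in ESC, and in Zfp773, from 0 to 681 with none in ESC. For Zfp84 and Zfp957 the ESC value was nearer to shSuz12 than to shGFP.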

How the data were processed

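GLIB-Seq peak lists of 6 libraries were used, 1 per condition, so no groups of replicates exist. RNA-Seq libraries of the hairpin cells were not analysed here. According to the submitters' processing notes and the methods, the authors called bases with CASAVA 1.8, mapped reads to mm9 with Bowtie 0.12.7, kept reads with a unique hit, reduced redundant reads to 1 and ran MACS 1.4.1 on each library. The authors deposited a score beside each peak, which was read as the MACS value, −log10 of the p-value multiplied by 10. The threshold and the control of each list, and the hairpin against Suz12 used for GLIB-Seq, are not given in the sources used here. The lists hold no read counts, so the depth is unknown.

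Genes came from GENCODE M1 on NCBIM37, the assembly of mm9. The TSS was the 5′ end of the gene record, and the last exon that of the protein-coding transcript with the longest coding sequence. A gene had a peak when at least 1 bp of the window overlapped 1. Intervals of shares are exact Clopper-Pearson ones at 95% and describe counting error alone. No test was run, since there is 1 library per condition. Words of 32 bases were counted on both strands of the genome. Fingers and KRAB-like stretches were found by pattern in translated coding sequences. Genes named are a list with known roles, and those with the most covered bp, the largest decreases and increases from shGFP to shSuz12, the last exons with peaks in the libraries from ESCs alone or in MEF, brain and liver alone, and the longest without a peak. The members and lists were chosen with earlier results of these data known. Alternatives were a score of at least 80, equal numbers of peaks, peak midpoints, other windows and last exons, and leaving out chromosome 8. Analyses of genes with 2 or more exons, of unique windows and of means over genes were added after seeing the data. Steps were tested on simulated peaks. Python 3.11.15 was used with numpy 2.4.6, pandas 2.3.3, scipy 1.17.1, numba 0.67.0 and matplotlib 3.10.9.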

Additional observations from a re-analysis of the deposited data

How the results depend on the processing

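No paired analysis was possible because a single library stands for each condition. The depth is unknown, the lists differ in number of peaks and lowest score, which cannot be told apart from the condition, and unique mapping limits what can be seen in repeated exons. Each of 38 values was recomputed under up to 10 alternatives, 226 in all, and a share was taken as moved when it left its 95% interval and a percentage of bp when it moved by over 1.5 times. The cause of these moves was not tested. Leaving out chromosome 8, where 62.0% of other genes had a last-exon peak in ESC against 40.5% over all chromosomes, taking the last exon that reaches the 3′ end of the gene, or keeping genes with 2 or more exons moved none of the members' 18, 12 and 36 values recomputed, but the other genes' values moved as well. Against these, the ESC last-exon share was still higher, but its interval included the others' share. This held with the 3′-end exon (45.1% against 40.2%) and with 2 or more exons (47.8% against 44.0%). With 2 or more exons, the others' gene-span share lay above the members' interval in ESC, brain, shGFP and shSuz12. It also did so for the last exon in MEF (21.5% against 27.6%). The genes with 2 or more exons, the unique windows and the means over genes were chosen after seeing the data.

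With scores of at least 80, 24 of 38 values moved, and 37 stayed on the same side of the other genes. Every peak of the ESC and liver lists had such a score. The ESC and liver values were thus fixed in advance, and their staying the same shows nothing. The liver list was also the shortest, so its values were fixed with equal numbers of peaks too. At the TSS the shares of members were 12.2% (MEF), 4.86% (brain), 9.73% (shGFP) and 2.16% (shSuz12), and the bp covered 3.55, 1.04, 3.22 and 0.464%. In the gene span the shares were 27.6% (MEF), 29.7% (brain), 45.4% (shGFP) and 25.4% (shSuz12), and the bp covered 7.74% (MEF), 8.84% (brain) and 1.94% (shSuz12). In the last exon the shares were 7.84% (MEF, below the 11.1% of other genes), 16.2% (brain), 30.0% (shGFP) and 13.0% (shSuz12), and the bp covered 3.82% (MEF), 10.4% (brain, against 10.1% in other genes) and 4.62% (shSuz12). The shares with a peak in shGFP and none in shSuz12 were 83.3% at the TSS and 57.7% in the last exon. With the 130408 highest-scoring peaks of each list, 7 of 38 moved, to TSS shares of 17.6% (ESC) and 20.8% (MEF), gene-span shares of 60.8% (ESC) and 36.8% (MEF), a last-exon share of 11.9% (MEF, below the 17.5% of other genes), and 5.7 and 5.54% of bp covered at the TSS and in the last exon (MEF). By peak midpoints the TSS shares were 10.8, 18.9, 7.57, 20.3, 9.46 and 5.41% in ESC, MEF, brain, liver, shGFP and shSuz12, and the last-exon shares 42.2% (ESC, against 25.9%) and 23.2% (liver, against 18.7%), with brain at 31.4% against 19.8%. Within 500 bp of the TSS the shares were 9.73, 14.6, 8.38, 21.1, 9.19 and 4.59% in the same order, and the bp covered 5.26% (MEF), 2.99% (brain) and 6.9% (liver). The order turned for the MEF share (14.6 against 18.4% in other genes) and the liver bp (6.9 against 7.15%). Within 2 kb they were 37.3, 41.4, 31.9, 52.2, 28.1 and 25.7%, and the bp covered 9.03% (ESC), 7.83% (brain) and 3.44% (shSuz12). In windows of at least 95% unique words the TSS shares were 41.1% (MEF), 48.5% (liver) and 20.3% (shGFP), and the last-exon shares 61.2, 27.3, 49.0, 41.2, 51 and 48.6%, with brain above the 40.3% of other genes. As a mean over genes the MEF gene-span coverage was 7.12%, and 11 of 18 values stayed on the same side of the other genes.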

Other observations

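The proteins that KRAB zinc finger proteins work through were looked at as a fixed list of 14 symbols, 13 of which are in the annotation, 1 of them (Atf7ip) with more than 1 gene record, so that 14 records were counted. The second Atf7ip record is a single exon just downstream of the first, and its TSS window reaches into the last exon of the first. It was the only record with a TSS peak in brain, and it had TSS peaks in ESC, liver and shGFP as well. A peak in the TSS ± 1 kb was present in 3 records in ESC, 4 in MEF, 1 in brain, 10 in liver, 3 in shGFP and 2 in shSuz12. These are 21.4, 28.6, 7.14, 71.4, 21.4 and 14.3% of the records, against 32.1, 30.0, 20.0, 29.2, 27.3 and 21.6% of protein-coding genes other than Zfp genes. In the last exon the counts were 7, 3, 7, 7, 6 and 4 in the same order, or 50, 21.4, 50, 50, 42.9 and 28.6%, against 40.5, 25.4, 32.5, 33.9, 30.1 and 26.3%. Trim28, the corepressor that the KRAB domain binds, had 347 bp of its 347-bp last exon covered in ESC, liver and shGFP, 183 bp in brain, and none in MEF and shSuz12. Setdb1, its H3K9 methyltransferase partner, had 441 bp in liver and 485 bp in shSuz12, and none in the other libraries. Liver had the most TSS peaks of the 6 libraries in these records, as in the Zfp members.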
